A study of Mus musculus with 47 samples.

Results

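The cellular response to low oxygen was followed through 10 genes that hypoxia-inducible factors (HIFs) are known to switch on: Stc1, Vegfa, Adm, Car9, Ndrg1, Bnip3, Egln3, Ankrd37, Pfkfb3 and P4ha1. They were 10 of the 56748 gene rows of the count table, matched by Ensembl identifier through the GENCODE annotation. Stc1 was selected on its lower counts in m.12436 60% tumors than in control tumors, 2 of the groups described next, so that comparison is given as a description and without a test. The other 9 are well-known hypoxia targets, and the question asked of the data was whether Stc1 moved with them.

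All libraries came from B78-D14, an amelanotic mouse melanoma line derived from B16 that lacks Cdkn2a. DdCBE base editors, which change C to T in mitochondrial DNA, were used to place a truncating G to A change in Mt-Nd5, a complex I subunit gene, at m.11944 or m.12436. The percentage in a group's name is the share of mitochondrial genomes that carried the change in the engrafted or cultured population (heteroplasmy). Each genotype was 1 transfected and sorted population rather than a set of independent clones. The groups used here were 4 cultures of m.11944 60% cells, 4 cultures of control cells with wild-type mitochondrial DNA, 4 control tumors (numbered 001 to 004 in the labels), 7 m.12436 60% tumors and 7 m.12436 40% tumors, all untreated. The tumors were fragments of subcutaneous growths in immunocompetent male C57BL/6 mice, young adults by the study's methods, so that they held host cells beside melanoma cells. The labels do not tie tumors or cultures to named experiments. They do hold a second set of control tumors, numbered 1 to 6, which was not used here, and they do not say how the sets differ. The p-values measure only the spread between the samples used. Total counts lay between 16475735 and 36173502 per library.

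HIFs are transcription factors made of an oxygen-labile alpha subunit and a stable partner, ARNT. When oxygen is plentiful, prolyl hydroxylases mark the alpha subunit for destruction, and when it is scarce the factor accumulates and binds a short DNA core in front of genes for blood vessel growth, glycolysis, acid export and mitochondrial turnover. In solid tumors the response varies from one piece of tissue to the next with the distance to blood vessels.

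To show regulatory sequence in front of these genes, promoter windows of 250 bases upstream of the annotated start were taken from the RefSeq promoter table and located in GRCm39, where each matched once. A window was held for 8 of the 10 genes, some with more than one start; Stc1 and Ndrg1 had none and were not searched. The HIF core was searched as ACGTG and GCGTG on both strands, and a palindromic CACGTG, which other helix-loop-helix factors also bind, counts as 2 matches. At least 1 match lay in 9 of the 10 windows of these genes, against 38.6% of all 32851 windows, and at least 3 lay in 4 of the 10, against 6.58% of all. A match is a description of letters and not a measured binding site. The windows of Adm, Bnip3, Egln3 and Ankrd37 are printed because their genes were among the most tightly linked from tumor to tumor in the values that follow; they are written 5′ to 3′ on the gene's strand with the matches in capitals.
Adm, chr7:110226614-110226863, GRCm39, plus strand: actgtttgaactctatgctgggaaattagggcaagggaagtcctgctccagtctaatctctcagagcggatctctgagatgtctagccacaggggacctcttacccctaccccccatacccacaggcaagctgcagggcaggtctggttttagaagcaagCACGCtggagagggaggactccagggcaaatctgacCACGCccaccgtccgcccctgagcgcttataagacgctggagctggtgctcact
Bnip3, chr7:138511236-138511485, GRCm39, minus strand: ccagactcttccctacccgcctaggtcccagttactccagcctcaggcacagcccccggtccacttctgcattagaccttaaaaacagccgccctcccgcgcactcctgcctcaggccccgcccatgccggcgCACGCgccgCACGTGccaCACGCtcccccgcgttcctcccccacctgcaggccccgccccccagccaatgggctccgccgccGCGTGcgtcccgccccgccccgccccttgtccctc
Egln3, chr12:54250661-54250910, GRCm39, minus strand: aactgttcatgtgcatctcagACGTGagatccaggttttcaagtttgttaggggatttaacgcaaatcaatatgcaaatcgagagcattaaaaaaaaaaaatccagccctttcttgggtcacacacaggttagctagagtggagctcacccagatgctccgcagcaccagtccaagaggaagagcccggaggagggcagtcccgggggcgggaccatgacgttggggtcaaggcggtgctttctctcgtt
Ankrd37, chr8:46452888-46453137, GRCm39, minus strand: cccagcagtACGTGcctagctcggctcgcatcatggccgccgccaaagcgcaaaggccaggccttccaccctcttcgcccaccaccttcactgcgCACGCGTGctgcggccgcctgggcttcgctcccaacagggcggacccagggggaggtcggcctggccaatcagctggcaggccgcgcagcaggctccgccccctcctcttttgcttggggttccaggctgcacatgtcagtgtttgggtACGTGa
Bnip3 had the most matches, 5, of which 4 began between 117 and 99 bases before its start, while the single match in Egln3 began 229 bases before its start.

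In cultured cells Stc1 was almost silent with the mutation, and none of the other 9 genes was called with all cultures. In the blocked fit some of the 9 were called when number 3 or 4 was left out. The reads of Stc1 (chromosome 14 of GRCm39, 69266575 to 69279253, plus strand), which encodes a secreted stanniocalcin hormone first known for calcium and phosphate balance, numbered 58, 50, 15 and 71 in the control cultures. In the m.11944 60% cultures they numbered 1, 0, 1 and 6. The groups did not overlap, and every edited culture lay below the control culture of the same replicate number. Groups stood apart in the lower direction in 1.86% of the 12930 genes tested. Summed over cultures, the edited cells held 8 reads and the controls 194, so that Stc1 was at 4.30% of the control level after scaling by library size (exact 95% interval 1.83% to 8.64%, which covers counting error only). As CPM, the count scaled to library size with edgeR's TMM factors, this was 0.060 ± 0.072 (SD, n = 4) against 1.69 ± 0.88 (SD, n = 4).

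The edgeR quasi-likelihood fit put the log2 fold change of Stc1 at −4.57 (SE 0.80), a size that depends on the prior count because 1 library was at 0, and it did not pass the threshold of an adjusted p under 0.1 (adjusted p = 0.242). Only 5 of 12930 genes (0.0387%) passed in that fit. The cultures of one number deviated together in both lines (r between 0.718 and 0.832), as did some of different numbers (r up to 0.810). Once that number entered the fit as a block, the log2 fold change became −4.60 (SE 0.44, adjusted p = 0.00150), in a fit that called 919 genes, or 7.11%. DESeq2 without the block also called Stc1 (adjusted p = 4.83e-05). Leaving out both cultures of each number in turn from the blocked fit, added after the values were seen, called Stc1 in 4 of 4 fits, at log2 fold changes of −5.58 to −4.21 and adjusted p-values of 0.00306 to 0.00730. Permuting the 4 against 4 cultures with the replicate numbers ignored gave a two-sided exact p = 0.0286, the smallest that such an unpaired permutation allows. A permutation that keeps the pairing of the blocked fit was not run.

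Replicate number divided the cultures for some hypoxia genes and left others level. Vegfa (chromosome 17, 46327919 to 46343309, minus strand), the main growth factor for blood vessels, stood at 113, 122, 28.9 and 40.1 CPM in control cultures 1 to 4 and at 107.1, 115, 21.7 and 24.3 CPM in the edited ones. Ndrg1 (chromosome 15, 66801166 to 66841835, minus strand), a stress-induced cytoplasmic protein, read 250, 236, 36.3 and 95.4 CPM in the control cultures against 201, 195, 53.5 and 67.1 CPM. Both genes were high in numbers 1 and 2 and low in 3 and 4, whichever genotype the culture had. Car9 (chromosome 4, 43506966 to 43513729, plus strand), the surface carbonic anhydrase that handles acid, kept the same order at very low levels, between 0.745 and 1.13 CPM in numbers 1 and 2 and between 0.0853 and 0.345 CPM in 3 and 4. Stc1 did not keep that order: among control cultures its highest value, 2.41 CPM, was in number 4 and its lowest, 0.427 CPM, in number 3.

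Bnip3, Egln3, Ankrd37 and Adm had higher values in the edited cultures of numbers 1, 2 and 3 and lower ones in number 4, and with all cultures none was called, with or without the block. Bnip3 (chromosome 7, 138490690 to 138511253, minus strand), a mitochondrial outer membrane protein that marks mitochondria for removal, was at 25.8, 26.0, 42.8 and 97.6 CPM in the control cultures and at 45.8, 52.2, 56.2 and 69.6 CPM in the edited ones. Its log2 fold change was 0.22 (SE 0.42, adjusted p = 1.00), or 0.42 (SE 0.22, adjusted p = 0.301) with the block. Egln3 (chromosome 12, 54225767 to 54250673, minus strand), itself a HIF prolyl hydroxylase and so part of the feedback, went from 40.9, 39.7, 41.2 and 111 CPM to 68.7, 65.5, 60.5 and 81.5 CPM. Ankrd37 (chromosome 8, 46449939 to 46458744, minus strand), an ankyrin repeat protein, was low throughout, at 0.402, 0.582, 1.51 and 3.36 CPM in controls and 2.08, 2.63, 1.61 and 2.46 CPM in edited cultures. Adm (chromosome 7, 110226858 to 110229027, plus strand), the precursor of the vessel-relaxing peptide adrenomedullin, was at 46.9, 45.7, 17.6 and 45.6 CPM against 65.2, 67.5, 26.4 and 29.6 CPM. Culture number 4 of the control line thus held the top value of Bnip3, Egln3 and Ankrd37 among all 8 cultures. Without number 4 the blocked fit called all of these genes higher in the edited cultures: Bnip3 by 0.74 (SE 0.12, adjusted p = 0.0199) on the log2 scale, Egln3 by 0.67 (SE 0.08, adjusted p = 0.00847), Adm by 0.54 (SE 0.08, adjusted p = 0.0138) and Ankrd37 by 1.34 (SE 0.42, adjusted p = 0.0897). That fit called 2092 of 12903 genes, or 16.2%. Without number 1, 2 or 3 none of these genes was called, and the fits called 0.689%, 0.852% and 4.64% of genes. What set number 4 apart was not tested.

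Over the control and edited cultures together, the glycolytic and collagen genes ranged least in fold terms. Pfkfb3 (chromosome 2, 11476244 to 11558888, minus strand), which makes the activator of phosphofructokinase, lay between 11.7 and 23.6 CPM in controls and between 13.1 and 18.5 CPM in edited cultures. P4ha1 (chromosome 10, 59159092 to 59209126, plus strand), a collagen prolyl hydroxylase subunit, lay between 187 and 214 CPM and between 158 and 212 CPM. Among the 9 genes other than Stc1 the block gave its smallest adjusted p to Vegfa, 0.130, at a log2 fold change of −0.32 (SE 0.11), with the edited culture lower in 4 of 4 numbers. Without number 4 Pfkfb3 was called lower (−0.43, SE 0.11, adjusted p = 0.0499), and without number 3 Ndrg1 was (−0.37, SE 0.07, adjusted p = 0.0468). None of the 9 genes had an unadjusted p under 0.05 without the block and with all cultures, and DESeq2 called none of them. The plot of cultures by replicate number shows both features.

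**Figure D1:**
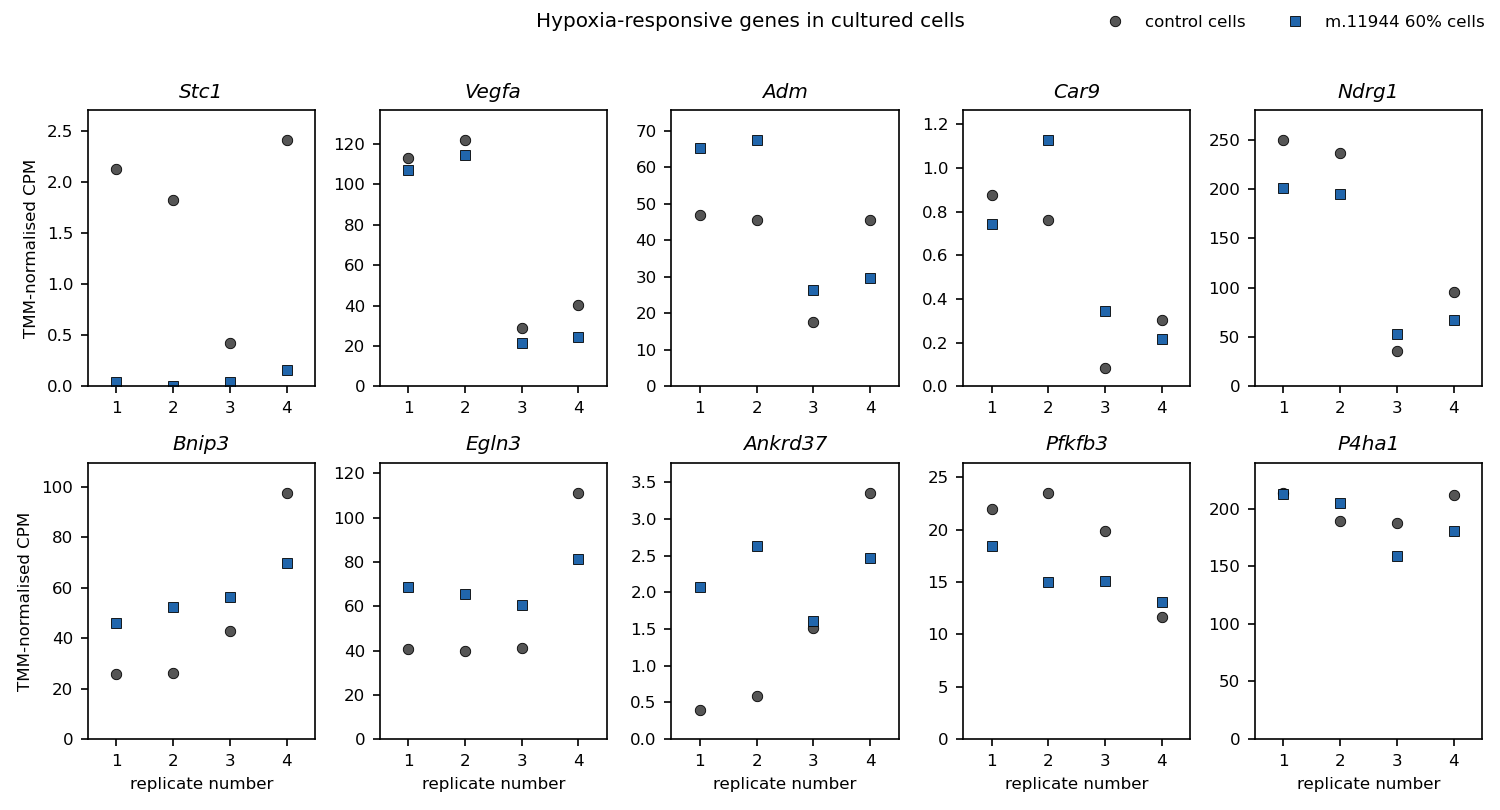
TMM-normalised CPM of the 10 genes in control cells (circles) and m.11944 60% cells (squares) against the replicate number, 1 panel a gene, with axes from 0. Stc1 lay near 0 in the 4 edited cultures, while Vegfa, Ndrg1 and Car9 were high in numbers 1 and 2 and low in 3 and 4 in both lines.

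In tumors Stc1 was much lower in the 60% group, and the groups of the other 9 genes overlapped. Stc1 stood at 245, 163, 155 and 146 CPM in control tumors 001 to 004. In the 7 m.12436 60% tumors the lowest value was 20.5, the median 29.4 and the highest 54.03 CPM. All 7 lay below all 4 control tumors, as in 2.66% of 16213 genes, and the mean of the controls, 177 ± 46 CPM (SD, n = 4), was 5.58 times that of the 60% tumors, 31.8 ± 13.0 CPM (SD, n = 7). The fitted log2 fold change was −2.48 (SE 0.39); this contrast chose the gene, and no test is attached to it. In that comparison 2.31% of 16213 genes were called and none of the other 9 genes was, and nothing is read from either.

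The 7 m.12436 40% tumors lay between, and spread widely. Their Stc1 ran from 24.3 to 183 CPM with a median of 77.8, overlapping both other groups. Of the 7, 6 lay below all control tumors, and 6 lay above all 60% tumors. The exception at the low end was replicate 2, at 24.3 CPM, and at the high end replicate 7, at 183 CPM. The mean of the controls was 1.84 times that of the 40% tumors (log2 fold change −0.88, SE 0.39), and the mean of the 40% tumors was 3.03 times that of the 60% tumors (log2 fold change of 60% against 40% −1.60, SE 0.35). Both comparisons share samples with the one that chose Stc1, so these too are descriptions.

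Markers of other cell types were read in the same tumors. The summed level of 8 leukocyte markers was 1421 to 1627 CPM in control tumors, 1132 to 1578 CPM in 40% tumors and 1407 to 2182.5 CPM (median 1957) in 60% tumors, and the same sum was at most 2.80 CPM in any culture, with Cd3e, Cd52 and Itgam at 0 in all 8. With a leukocyte score as a covariate the log2 fold change of Stc1 was −2.36 for 60% against control tumors and −1.48 for 60% against 40%. Markers of skeletal muscle had a median of 63.5 CPM in control, 115 CPM in 40% and 2.51 CPM in 60% tumors. The control and 60% groups were split. Control tumors 001 and 002 were at 124 and 142 CPM, and 003 and 004 at 2.996 and 2.29 CPM. Replicates 3, 4 and 7 of the 60% group were at 80.9, 137 and 225 CPM, and its other tumors at 2.28 to 2.51 CPM. The 40% tumors lay between 38.98 and 194 CPM. The 4 globin genes had a median of 66.6, 23.6 and 19.7 CPM. The part of muscle and globin markers in the result was not tested. Endothelial markers summed to medians of 224, 204 and 211 CPM, fibroblast markers to 3428, 3202 and 3457 CPM, neutrophil markers to 18.4, 18.2 and 17.6 CPM, and keratinocyte markers to at most 3.06 CPM in any tumor. The label of the line was met in part, mainly through Mitf: 7 pigment cell markers summed to between 7.90 and 23.3 CPM in the cultures, with Tyr at 0 in all 8. Mitf had 194 to 630 reads a culture, and no other of these markers had more than 11. In the tumors the same sum was 22.4, 25.4, 66.2 and 26.7 CPM in control tumors 001 to 004, 15.2 to 27.7 CPM in 40% and 21.0 to 28.1 CPM in 60% tumors. Mitf had 307 to 727 reads in the 40% and 60% tumors, where no other of these markers had more than 19. Control tumor 003 stood apart, with 798 reads of Dct, 291 of Sox10 and 267 of Pmel, and values without it are given beside the results it touches. In whole fragments, fewer cells of a type and less RNA per cell cannot be told apart.

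The other secreted factors overlapped between all groups. Vegfa was at 88.9, 29.7, 95.2 and 58.3 CPM in the control tumors, between 55.0 and 93.0 CPM (median 60.5) in the 40% tumors and between 30.0 and 127 CPM (median 78.3) in the 60% tumors. Adm was at 61.6, 32.7, 118.6 and 53.0 CPM in the control tumors, between 27.6 and 82.5 CPM (median 47.7) in the 40% tumors and between 30.0 and 89.5 CPM (median 58.4) in the 60% tumors. The log2 fold changes in 60% against control tumors were 0.13 (SE 0.34) for Vegfa and −0.25 (SE 0.38) for Adm.

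The gene for acid handling and the stress gene ranged as widely within groups as between them. Car9 was at 5.26, 2.13, 14.7 and 4.48 CPM in control tumors, from 1.95 to 11.8 CPM (median 4.00) in 40% and from 1.65 to 10.9 CPM (median 5.68) in 60% tumors. Ndrg1 was at 153, 100.2, 265 and 171 CPM in control tumors, from 100.2 to 303 CPM (median 136) in 40% and from 121 to 242 CPM (median 183) in 60% tumors. Control tumor 003 was the highest control for both and control tumor 002 the lowest.

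The mitochondrial and feedback genes gave the same picture. Bnip3 was at 66.9, 31.9, 90.7 and 61.8 CPM in control tumors, from 41.9 to 117 CPM (median 54.7) in 40% and from 37.7 to 94.6 CPM (median 76.6) in 60% tumors. Egln3 was at 158, 77.6, 161 and 124 CPM in control tumors, from 80.5 to 194 CPM (median 118.8) in 40% and from 89.3 to 204 CPM (median 127) in 60% tumors. Ankrd37 was at 10.3, 3.23, 9.12 and 6.30 CPM in control tumors, from 4.31 to 11.5 CPM (median 5.21) in 40% and from 4.02 to 13.3 CPM (median 10.3) in 60% tumors. Of the 7 tumors at 60%, 3 exceeded every control for Egln3 and 3 for Ankrd37, and none fell below every control for either gene.

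Pfkfb3 was at 26.0, 26.5, 36.1 and 35.5 CPM in control tumors, from 25.4 to 49.2 CPM (median 29.6) in 40% and from 28.3 to 53.7 CPM (median 35.0) in 60% tumors. P4ha1 was at 315, 159, 309 and 265 CPM in control tumors, from 185 to 380 CPM (median 223) in 40% and from 174 to 340 CPM (median 273) in 60% tumors. Neither gene separated any pair of groups.

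**Figure D2:**
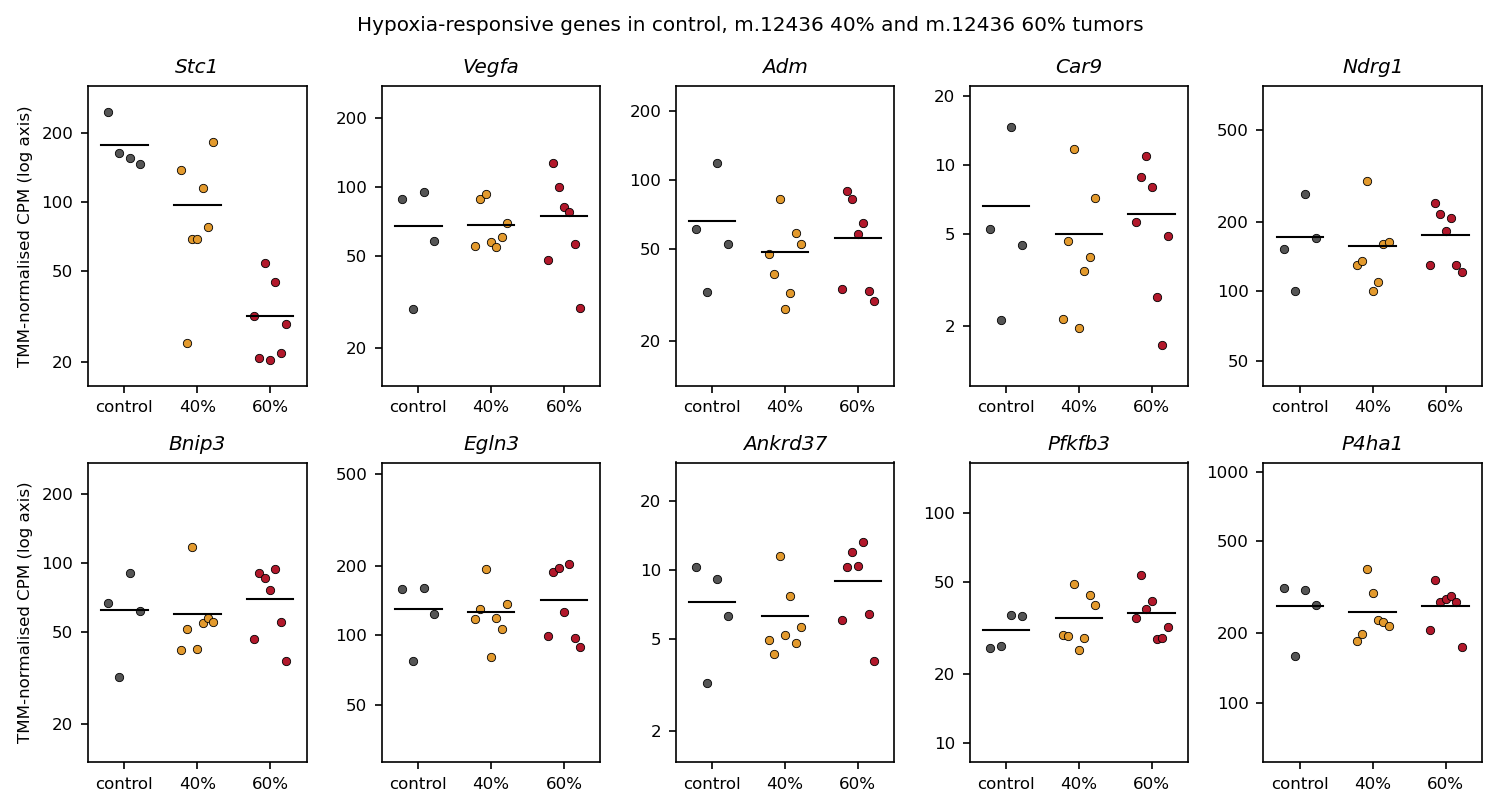
TMM-normalised CPM (log axis, every panel spanning the same or a wider fold range from its own base) of the 10 genes in 4 control, 7 m.12436 40% and 7 m.12436 60% tumors, 1 point a tumor, with the mean of each group as a line. For Stc1 every 60% tumor lay below every control tumor, and for the other 9 genes the 3 groups overlapped.

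None of the 9 genes was called in any comparison of tumors, none had an unadjusted p under 0.05 in 40% against control or 60% against 40% tumors, and DESeq2 called none of them there. In 60% against control tumors their log2 fold changes ran from −0.25 (Adm) to 0.30 (Ankrd37). With the leukocyte score as a covariate all 9 were positive there, from 0.08 (Car9) to 0.73 (Ankrd37), with Vegfa at 0.64 (SE 0.39), Bnip3 at 0.60 (SE 0.36), Egln3 at 0.56 (SE 0.27) and Adm turned to 0.37 (SE 0.43). Without control tumor 003 all 9 were positive too, from 0.10 (P4ha1) to 0.65 (Car9). In 40% against control tumors they ran from −0.45 (Adm) to 0.18 (Pfkfb3), with adjusted p-values of at least 0.945 (without control tumor 003, from −0.05 for Ankrd37 to 0.38 for Car9), in a comparison where 0 of 16213 genes (0.0%) passed in edgeR, 825 had an unadjusted p under 0.05, and DESeq2 called 5. In 60% against 40% tumors they ran from 0.06 (Pfkfb3) to 0.49 (Ankrd37), all positive, the smallest adjusted p being 0.480 for Ankrd37, where 1.81% of genes were called. The leukocyte covariate moved these to between 0.06 (Pfkfb3) and 0.86 (Ankrd37, SE 0.33, adjusted p = 0.382), with Adm at 0.74 (SE 0.37, adjusted p = 0.559) and Egln3 at 0.57 (SE 0.24, adjusted p = 0.433), and called none. The median over the 9 genes was 0.13, −0.09 and 0.18 in the 3 comparisons, beside −0.0025, 0.0043 and −0.0036 over all genes; the 3 comparisons share tumors. The standard errors of the 9 genes, 0.17 to 0.57 over the comparisons among tumors, set how small a change could be seen.

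**Figure D3:**
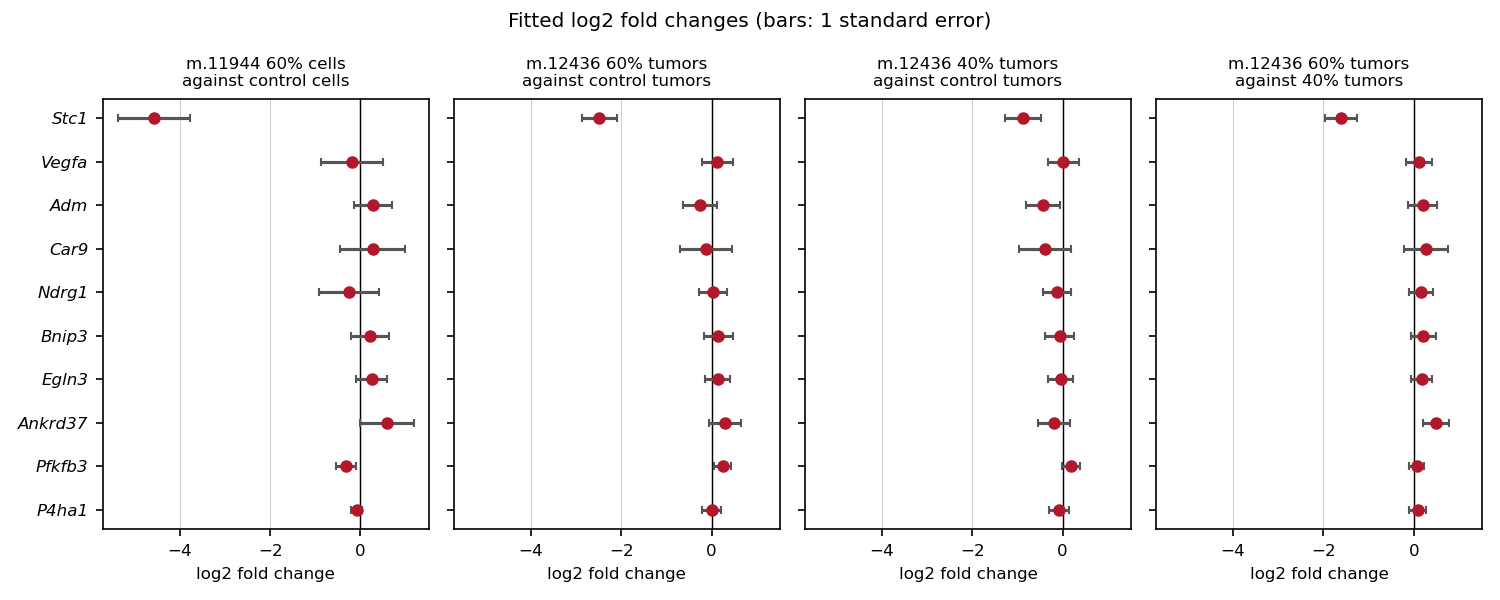
Fitted edgeR log2 fold changes of the 10 genes, with bars of 1 standard error, in m.11944 60% cells against control cells and in the 3 comparisons among tumors, on 1 common axis. Stc1 lay at −4.57, −2.48, −0.88 and −1.60, and the other 9 genes lay between −0.45 and 0.58.

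Read per length of exon, Stc1 also changed its place in the order of the 10 genes. In CPM divided by the exon length in kilobases (RPKM) it was number 2 in control tumors, at 41.2 ± 10.7 (SD, n = 4), behind Egln3 at 48.4 ± 14.4 and level with Adm at 40.8 ± 22.6 and P4ha1 at 40.5 ± 11.1, and these 4 did not differ beyond their spread. In 40% tumors it was number 4 at 22.4 ± 12.2 (SD, n = 7), and in 60% tumors number 7 at 7.38 ± 3.02 (SD, n = 7), under Bnip3 at 16.1 ± 5.3 and above Ankrd37 at 4.77 ± 1.83. In cultured control cells it was number 9 at 0.393 ± 0.204 (SD, n = 4), near Car9 at 0.208 ± 0.154, and in m.11944 60% cells last at 0.0140 ± 0.0166. Egln3, P4ha1, Adm, Ndrg1, Vegfa and Bnip3 kept that order among themselves in both mutant tumor groups.

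The control tumors and control cultures show how each gene stood in tissue against culture, with the reservation that library set, host cells and growth in the animal cannot be told apart. Stc1 had a mean 87.2 times higher in the control tumors than in the control cultures, on a common scaling of both sets (log2 fold change 6.46, SE 0.47, a description because the control tumors chose the gene). Of the other 9 genes 3 were higher in tumors, where 35.3% of all 15047 genes were called higher and 29.9% lower. They were Car9 (log2 fold change 3.46, SE 0.75, adjusted p = 0.00332), Ankrd37 (2.04, SE 0.63, adjusted p = 0.0197) and Egln3 (0.89, SE 0.37, adjusted p = 0.0640). Egln3 no longer passed without a filter on low counts (adjusted p = 0.171), nor without control culture 1, 2 or 3 or control tumor 001, 003 or 004 (adjusted p-values of 0.113 to 0.162). None of the 9 was called lower. Vegfa had a log2 fold change of −0.43 (SE 0.51, adjusted p = 0.487), and Bnip3, P4ha1 and Ndrg1 had ones between −0.11 and 0.12 with standard errors of 0.20 to 0.54.

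Tumor by tumor inside the groups, the 9 hypoxia genes varied together, and no such relation was detected for Stc1. In the 40% group replicate 3 had the highest value of all 9 genes, among them 117 CPM of Bnip3 and 303 CPM of Ndrg1, yet its Stc1, 69.0 CPM, was the fifth of 7 from the top. In the 60% group replicate 7 had the lowest value of 7 of the 9 genes and stood at the fourth place in Stc1. Among the controls, tumor 003 was highest for 7 of the 9 genes and took the third place of 4 in Stc1 (it is also the tumor with the most pigment cell marker reads), and tumor 002 was lowest for 8 of the 9 and took the second place in Stc1. Other tumors went the other way. Control tumor 001 and replicate 3 of the 60% group were the highest of their groups in Stc1. They were also among the top 2 for 7 and 6 of the 9 genes.

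Correlations over the 18 tumors, taken after each group's mean log2 CPM was subtracted, put numbers on this. The 36 pairs without Stc1 had Pearson r between 0.35 (Ankrd37 and Pfkfb3) and 0.95 (Adm and Ndrg1), with a median of 0.76, and a permutation of the tumors within groups (100000 resamples, two-sided) gave an unadjusted p under 0.05 in 32 of the 36; adjusted values come from the fit over all genes described last. Spearman rho over these pairs ran from 0.14 to 0.97 with a median of 0.72. The 9 pairs with Stc1 had r between −0.11 (Vegfa) and 0.24 (Ankrd37), with a median of 0.02 and permutation p-values from 0.310 to 0.995. Their rho ran from −0.32 (P4ha1) to 0.21 (Ankrd37). For example, Bnip3 and Ndrg1 had r = 0.93 (95% interval 0.81 to 0.98 by Fisher's transformation) and Stc1 and Ndrg1 r = 0.02 (−0.48 to 0.51). The difference between such coefficients was not tested.

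Leaving out the 2 tumors whose Stc1 lay farthest from the median, replicates 2 and 7 of the 40% group, gave r between −0.42 (Pfkfb3) and 0.29 (Egln3) for the pairs with Stc1 and a median of 0.69 for the pairs without it. Within the 60% tumors alone the median r was 0.83 without Stc1 and 0.21 with it. Within the 40% tumors alone the medians were 0.73 and −0.03. The control group, with 4 tumors, was too small to take alone. Without control tumor 003 the pairs without Stc1 had a median r of 0.75 (0.32 to 0.94) and the pairs with it 0.04 (−0.09 to 0.27).

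**Figure D4:**
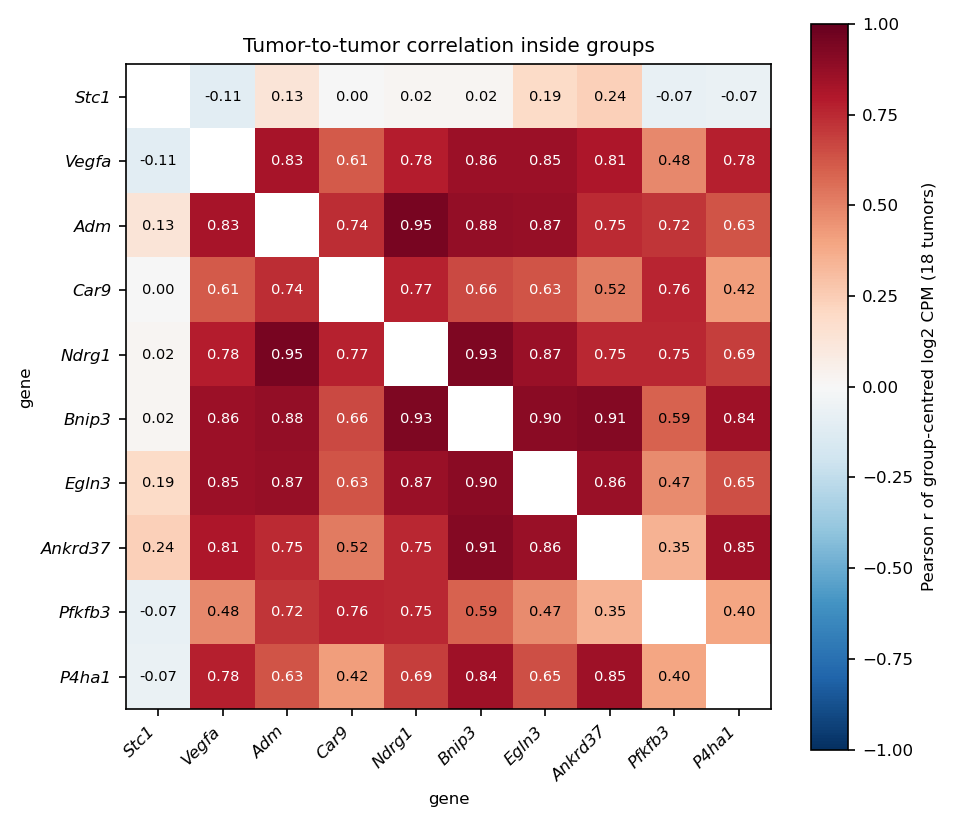
Pearson r of each pair of the 10 genes over 18 tumors after subtraction of group means, coloured from −1 (blue) to 1 (red), with the value printed in each cell. The row of Stc1 lay between −0.11 and 0.24, and the pairs among the other 9 genes lay between 0.35 and 0.95.

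**Figure D5:**
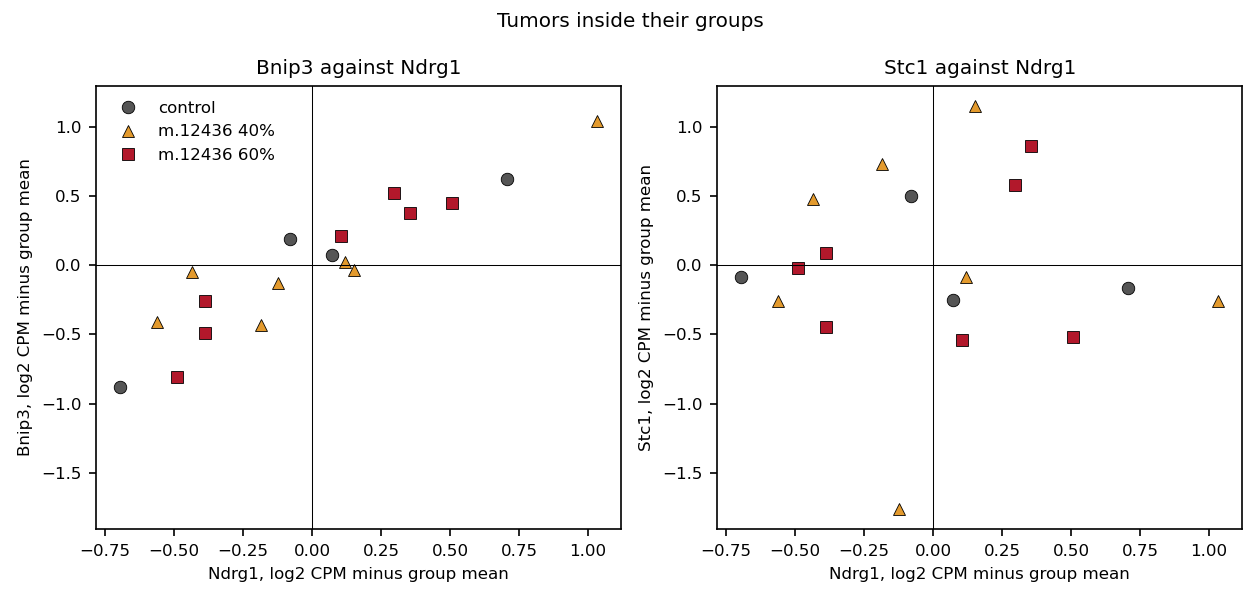
Log2 CPM minus the group mean in each of 18 tumors, for Bnip3 (left) and Stc1 (right) against Ndrg1, with control tumors as circles, m.12436 40% tumors as triangles and m.12436 60% tumors as squares. Bnip3 rose with Ndrg1 (r = 0.93), and Stc1 scattered without a slope (r = 0.02); the lowest Stc1 point, at −1.76, is replicate 2 of the 40% group.

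A fit over all genes asked the same question with adjusted p-values. In an edgeR model with the tumor group and the group-centred log2 level of Stc1, none of the 9 genes had a slope that passed (adjusted p-values from 0.686 to 1.00), where 90 of 16212 genes (0.555%) did; none of the 9 had an unadjusted p under 0.05. Bnip3 had a slope of 0.00 (SE 0.20) log2 units for each log2 unit of Stc1, and Egln3 one of 0.11 (SE 0.16). When each of the 9 genes took the place of Stc1, a fit added after the values were seen, between 2 and 7 of the 8 remaining genes passed. Adm and Ndrg1 each called 7 of 8, where they called 0.783% and 1.09% of all genes, and Pfkfb3 called 2 of 8, where it called 0.382%. In none of those 9 fits did Stc1 pass, its adjusted p lying between 0.850 and 1.00.

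None of the 10 genes nearest to or most opposite to Stc1 across the 18 tumors was one of the other 9 hypoxia genes or of the wider lists. Among 12316 genes with a mean log2 CPM of at least 1, the highest r after subtraction of group means belonged to Gm44645 (0.86), Morn4 (0.85), Ip6k2, an inositol hexakisphosphate kinase (0.85), Mms19, which helps load iron–sulfur clusters (0.84) and Gm49602 (0.83). The lowest belonged to Glipr1 (−0.90, adjusted p of the slope = 0.00481), the nuclear pore protein Nup50 (−0.88), Nopchap1 (−0.85), the methyl-CpG reader Mbd2 (−0.84) and Gpr89 (−0.83). Mms19 did not pass in the fit of slopes (adjusted p = 0.116), and the other 9 of these did. Among the 9 hypoxia genes the highest rank was 2764 of the 12316 for Ankrd37 and the lowest 6605 for Vegfa. Among 47 genes ranked from the wider list Zfp395 came highest, at 715 (r = 0.52), and Gbe1 lowest, at 12075 (r = −0.65). Without replicate 2 of the 40% group no gene's slope on Stc1 passed, so those 90 calls rest on that tumor, and r fell in size to between 0.70 and 0.76 for the 5 genes named first and to between −0.78 and −0.66 for the 5 named last.

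A wider list of 49 hypoxia genes and a list of 9 genes of the HIF pathway itself put the 10 genes in context. In 60% against control tumors 1 of the 57 tested from both lists was called higher and 1 lower; both belong to the contrast that chose Stc1 and are described only, beside 2.31% of all genes. In 60% against 40% tumors the same numbers passed, beside 1.81% of all genes, and in 40% against control tumors none did, with none at an unadjusted p under 0.05 and none called by DESeq2. The gene that fell was Loxl2, a lysyl oxidase that crosslinks collagen. It was at 65.1, 64.8, 89.4 and 55.7 CPM in control tumors, from 51.7 to 87.9 CPM (median 70.1) in 40% and from 20.5 to 36.7 CPM (median 28.7) in 60% tumors, so that the 60% tumors lay below all others. Its log2 fold change was −1.25 (SE 0.16) against control and −1.24 (SE 0.14, adjusted p = 0.000845) against 40% tumors. The wider lists were chosen with earlier results of these data known. The comparison with 40% tumors also shares its 60% tumors with the one against control, so its p-values for Loxl2 and Pdgfb are not independent support. The gene that rose was Pdgfb, a growth factor for pericytes, from a median of 36.1 CPM in control and 35.3 CPM in 40% tumors to 48.6 CPM in 60% tumors (log2 fold change of 60% against 40% 0.56, SE 0.10, adjusted p = 0.0157). With the leukocyte score as a covariate Pdgfb no longer passed (adjusted p = 0.105). Over the 49 genes the median log2 fold change was −0.03, −0.10 and 0.06 in 60% against control, 40% against control and 60% against 40% tumors. The HIF subunits were not called: Hif1a had log2 fold changes of 0.07 (SE 0.09) in 40% against control and 0.09 (SE 0.08) in 60% against 40% tumors.

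In the cultures no gene of either list was called without the block (2 of the 52 tested had an unadjusted p under 0.05, and DESeq2 called Loxl2 alone), and 5 of the 52 were with it, beside 7.11% of all genes. Without number 4 the blocked fit called 14, beside 16.2% of all genes. Loxl2 was again among the lower ones, at 7.57, 7.42, 6.57 and 13.3 CPM in control cultures and 3.80, 3.80, 3.64 and 4.08 CPM in edited ones, with no overlap (log2 fold change with the block −1.15, SE 0.16, adjusted p = 0.00872). Arnt2, a partner of the alpha subunits, had −0.43 (SE 0.11, adjusted p = 0.0659). Zfp395, at 0.53 (SE 0.13, adjusted p = 0.0643), and the histone demethylase Kdm3a, at 0.35 (SE 0.10, adjusted p = 0.0901), went up. Control tumors against control cultures gave 18 higher and 18 lower genes of the 49 of the wider list, beside 35.3% and 29.9% of all genes, shares close to the list's own. The list held Pdgfb, which had 0 or 1 reads in each control culture, Slc16a3, a lactate exporter (log2 fold change 6.09), and Loxl2 (2.72) as the higher genes of smallest p, and Gbe1, the glycogen branching enzyme (−1.20), the cytokine Mif (−1.35) and the glycolytic enzyme Pgk1 (−1.32) as the lower ones. Of the 8 pathway genes tested, Epas1 and Arnt were higher in tumors and Hif1a and Arnt2 lower. Epas1, the alpha subunit common in endothelium, was at 32.8 to 43.7 CPM in control tumors and at most 0.068 CPM in any culture, and Hif1a had a lower level in tumors (log2 fold change −0.79, SE 0.12, adjusted p = 0.000455).

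Stc2 is the paralog of Stc1. Its levels in control cultures 1 to 4 were 9.51, 11.1, 2.02 and 2.68 CPM, and in the edited cultures 3.88, 3.95, 0.307 and 1.204 CPM, lower in 4 of 4 numbers while the groups overlapped. The log2 fold change was −1.44 (SE 0.82, adjusted p = 1.00) without and −1.49 (SE 0.20, adjusted p = 0.00750) with the block. In tumors Stc2 was near the limit of counting, with 8 to 58 reads a library, and was not called in 40% against control tumors (−0.23, SE 0.33, adjusted p = 0.964) or 60% against 40% tumors (−0.63, SE 0.30, adjusted p = 0.348).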

How the data were processed

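Gene counts were measured by RNA-seq in 8 cultures and 18 tumors. The authors aligned reads with STAR 2.7.10a in two-pass mode and counted them with featureCounts 2.0.3 against Ensembl 107 on GRCm39, and they deposited raw counts per gene. Whether strand was used in counting is not given in the sources used here, so reads of a gene and of an overlapping antisense gene cannot be told apart. The table held 47 columns, of which 26 were used and 21, of other sets, were not analysed here. Column names of the m.11944 60% cultures and of both m.12436 tumor groups do not spell out the mutation or the percentage, and their groups were read with the study's own headings, so these groups rest on that reading. Of the 56748 rows, 56017 matched the annotation used for symbols, positions and exon lengths.

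Genes kept by filterByExpr were TMM-scaled and tested with the robust quasi-likelihood test of edgeR 4.0.16 (R 4.3.3, limma 3.58.1), and genes were called at a Benjamini-Hochberg adjusted p under 0.1. Cultures and tumors were fitted separately. Correlations used log2 CPM with a prior count of 2, less the group mean, with 100000 permutations within groups. The study's test was limma-voom, which was run as an alternative, as were DESeq2 1.42.0, other scalings, filters and thresholds, leukocyte markers as a covariate, fits on the compared groups only, the replicate number as a block, and left-out samples. Slope fits on each other hypoxia gene, the block together with a left-out number, and correlations without control tumor 003 or, for like genes, without replicate 2 of the 40% group were added after the values were seen. The tests were tested on simulated counts.

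The 10 genes, the wider lists and the marker lists were chosen with earlier results of these data known. Named genes were the 10 members, up to 3 listed genes of smallest p in each direction among those called, Stc2, and the 5 genes most and least like Stc1. The values of 1 listed gene called in the cultures are not reported here. In cultures the numbers were used to pair the samples. Deviations from the group mean of same-numbered cultures had r between 0.718 and 0.832 (4 pairs). Cultures of different numbers had r between −0.816 and 0.810, with a mean of −0.264 (12 pairs), so some of those deviated together as well. The pairing comes from the data, since the labels give only the number.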

Additional observations from a re-analysis of the deposited data

Results flagged for a closer look

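Of 50 sets of 4 to 7 libraries examined, 1 library stood far from the others of its group in 4, where chance gives about 1 in 20 (Dixon's ratio on log2 CPM past its 95% critical value for that number of libraries). Stc1 was lowest in control culture 3, at 0.427 CPM, with a gap to the next culture of 0.831 of the group's range. Adm was lowest in the same culture, at 17.6 CPM, with a gap of 0.973 of the range. Egln3 was highest in control culture 4, at 111 CPM, with a gap of 0.964 of the range. Bnip3 was highest in replicate 3 of the m.12436 40% tumors, at 117 CPM, with a gap of 0.692 of the range.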

How the results depend on the processing

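Only 18 tumors and 8 cultures limit what could be seen, and causes of the changes listed here were not tested. In the cultures the count of the 10 genes called was 0, and 1 with DESeq2 and 1 with the replicate block; the count of listed genes (wider hypoxia and pathway) was 0, and 1 and 5. In the blocked fit without number 1, 2, 3 or 4 these counts were 1, 1, 2 and 6 of the 10 genes and 1, 1, 3 and 14 of the listed genes. All genes called in the cultures numbered 5, and 84 with DESeq2, 0 with at least 10 counts in every sample and 919 with the block. Of listed genes in 60% against control tumors 2 were called, and 1 at an adjusted p under 0.05, 1 without a filter and 1 with the leukocyte covariate. In 60% against 40% tumors that covariate left 1 listed gene in place of 2. All genes called in 60% against control tumors numbered 374, and 150 at an adjusted p under 0.05, 1056 with DESeq2, 73 with the leukocyte covariate and 943 with these groups alone. In 60% against 40% tumors they numbered 293, and 113, 744 and 52 under the first 3 of these and 178 without a filter. In 40% against control tumors DESeq2 called 5 and edgeR 0.

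Tumor numbers did not pair the tumors: same-numbered tumors had mean correlations of −0.156, −0.00582 and −0.0264 for 60% and control, 40% and control, and 60% and 40%. The replicate block there called 178, 0 and 221 genes, and it turned the log2 fold changes of Bnip3 to 0.000204 and of Egln3 to 0.00795 in 40% against control tumors and of Car9 from −0.13 to 0.27 in 60% against control tumors. Among the genes tested, the block changed the call of Stc1 in the cultures and no call of the other 9 genes with all samples.

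Ndrg1 in tumors against cultures turned to 0.173 with limma-voom and 0.00140 with at least 10 counts in every sample. The near-zero r of Stc1 with other genes changed sign as follows. For Bnip3 it was −0.0947 in 40% tumors alone, −0.0326 with the leukocyte score removed, −0.0606 with the block and −0.0320 without the 2 farthest tumors. For Ndrg1 these were −0.0139, −0.0213, −0.0187 and −0.0865. Car9 had 0.133 in 60% tumors alone, Pfkfb3 had 0.180 in 40% tumors alone and 0.146 with the block, and Vegfa had 0.0478 in 60% tumors alone, 0.0149 with the block and 0.00937 without the 2 farthest. None of the 9 genes was called in any of these. All genes with a slope on Stc1 numbered 90, and 224 with the leukocyte score removed, 1 with the block, 0 without the 2 farthest tumors, 0 without replicate 2 of the 40% group, 51 without control tumor 003 and 398 without replicate 3 of the 60% group.

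With 1 library left out at a time, log2 fold changes that changed sign had the following ranges, and none of them belonged to a called gene. In 40% against control tumors the ranges were −0.662 to 0.00300 for Adm, −0.431 to 0.0267 for Ankrd37, −0.295 to 0.181 for Bnip3, −0.737 to 0.378 for Car9, −0.214 to 0.0867 for Egln3, −0.353 to 0.167 for Ndrg1, −0.253 to 0.0149 for P4ha1 and −0.225 to 0.234 for Vegfa. In 60% against 40% tumors they were −0.0520 to 0.163 for Pfkfb3 and −0.0629 to 0.253 for Vegfa, in cultures −0.221 to 0.672 for Car9, −0.583 to 0.0775 for Ndrg1 and −0.576 to 0.130 for Vegfa, and in tumors against cultures −0.137 to 0.703 for Bnip3, −0.456 to 0.212 for Ndrg1 and −0.00904 to 0.272 for P4ha1. The r of Stc1 lay between −0.0575 and 0.0893 with Bnip3, −0.121 and 0.0821 with Car9, −0.0562 and 0.0965 with Ndrg1, −0.295 and 0.0188 with P4ha1, −0.294 and 0.0327 with Pfkfb3, and −0.218 and 0.0353 with Vegfa. Listed genes called in 60% against control tumors were 1 to 2. All genes called ranged from 66 (without control tumor 003) to 724 (without control tumor 004) in 60% against control, from 108 (without replicate 1 of the 60% group) to 452 (without replicate 4 of the 40% group) in 60% against 40% and from 0 to 4 (without control tumor 004) in 40% against control tumors, and were 0 in the cultures.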
